A study of Mus musculus with 8 samples.

Results

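Cell junction and polarity genes encode the proteins that hold neighbouring cells together and give a cell sheet its top and bottom. A list of 32 such genes was followed here, chosen by gene symbol from what their proteins do, and all 32 were found among the 18194 genes that the array names. They were read by 74 probe sets, of which 70 lay above the low-signal filter, and every gene kept at least 1 probe set. The samples were 8 Affymetrix arrays of RNA from mouse embryonic stem cells (strain background 129X1 x 129S1), grown for 4 days under standard stem cell conditions. Knockdown cells carrying a short hairpin RNA against Top1, a DNA topoisomerase, or against p53 were combined with mock cells at 1 part to 4. The groups were shTop1 coculture, shTop1 mix, shp53 coculture and shp53 mix, with 2 arrays each. In a coculture the knockdown and mock cells shared a dish, and in a mix (labelled Control) they were grown apart and their RNA was combined at the same ratio. Mock cells were therefore the larger part when cells or RNA were combined. The share of knockdown cells in the cocultures at harvest was not measured here. The labels do not say what the mock cells carried, how many clones were used or whether feeder cells were present. Replicates are labelled biological, but no label says that they came from separate cultures, so p-values measure the spread between these arrays.

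Embryonic stem cells grow as compact colonies joined by E-cadherin, a calcium-dependent adhesion protein whose tail binds catenins and through them the actin cytoskeleton. Desmosomes anchor intermediate filaments, tight junctions seal the space between cells with claudins and occludin, and gap junctions pass small molecules through connexin channels. The Crumbs, Par and Scribble protein complexes set the boundary between the apical and the basolateral membrane of epithelial cells. In the early mouse embryo the same proteins act in compaction and in the formation of the first epithelium, the trophectoderm.

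The promoters of 5 genes are shown, chosen after their values were seen. These were the 4 claudin genes and the polarity gene Crb3, which had the list's smallest p for coculture minus mix averaged over both knockdowns. All 5 lay above 0 with both knockdowns, but this did not set them apart, since 11 genes of the list did so. The others were Cdh3, Epcam, Dsp, Llgl1, Llgl2 and Dlg1, whose promoters are not shown. Each is the RefSeq stretch of 300 bases, 250 before and 50 after an annotated start, on build GRCm38.p6. Capitals mark the E-box CACCTG or its reverse complement CAGGTG, the letters bound by the Snail and Zeb repressors, which are known for acting on E-cadherin and claudin genes. Crb3 lies at chr17:57061951-57062250 on the plus strand and Cldn4 at chr5:134946885-134947184 on the minus strand. Cldn3 lies 38.8 kb from the Cldn4 window at chr5:134985964-134986263 on the plus strand. Cldn6 lies at chr17:23679115-23679414 and the second listed start of Cldn7 at chr11:69965171-69965470, both on the plus strand.
Crb3: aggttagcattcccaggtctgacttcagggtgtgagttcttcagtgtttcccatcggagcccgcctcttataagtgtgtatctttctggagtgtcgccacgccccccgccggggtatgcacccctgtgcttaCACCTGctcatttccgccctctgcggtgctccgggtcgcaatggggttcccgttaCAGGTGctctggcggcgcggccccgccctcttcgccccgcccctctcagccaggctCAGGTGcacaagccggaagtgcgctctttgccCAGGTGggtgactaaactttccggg
Cldn4: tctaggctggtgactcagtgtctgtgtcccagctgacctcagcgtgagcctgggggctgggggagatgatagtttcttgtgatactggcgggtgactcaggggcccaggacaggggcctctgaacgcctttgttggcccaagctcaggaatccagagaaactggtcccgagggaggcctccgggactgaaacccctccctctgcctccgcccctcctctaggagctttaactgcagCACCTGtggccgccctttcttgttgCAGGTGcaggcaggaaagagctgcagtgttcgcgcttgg
Cldn3: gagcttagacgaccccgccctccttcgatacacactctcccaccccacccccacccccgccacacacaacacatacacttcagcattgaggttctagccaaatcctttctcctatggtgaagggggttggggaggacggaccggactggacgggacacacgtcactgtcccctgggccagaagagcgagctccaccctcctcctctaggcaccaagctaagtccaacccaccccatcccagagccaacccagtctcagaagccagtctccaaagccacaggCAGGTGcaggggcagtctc
Cldn6: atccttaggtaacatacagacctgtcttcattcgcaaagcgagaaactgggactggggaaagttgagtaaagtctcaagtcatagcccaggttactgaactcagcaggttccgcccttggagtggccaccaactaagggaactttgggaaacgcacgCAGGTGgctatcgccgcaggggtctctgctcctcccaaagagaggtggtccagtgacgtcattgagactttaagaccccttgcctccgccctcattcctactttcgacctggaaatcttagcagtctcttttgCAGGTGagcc
Cldn7: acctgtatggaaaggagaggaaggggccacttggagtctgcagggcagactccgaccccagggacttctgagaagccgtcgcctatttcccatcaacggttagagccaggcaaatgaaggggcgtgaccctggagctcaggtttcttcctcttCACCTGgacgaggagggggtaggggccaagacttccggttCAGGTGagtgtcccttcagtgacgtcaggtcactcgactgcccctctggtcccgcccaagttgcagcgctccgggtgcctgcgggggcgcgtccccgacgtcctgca

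The Crb3 window held 4 E-boxes, those of Cldn4, Cldn6 and Cldn7 held 2 each and that of Cldn3 held 1. The first listed start of Cldn7 (chr11:69964529-69964828) held none. Over all 32851 promoters of this length 20.2% held at least 1, 2.88% held 2 or more and 0.0548% held 4 or more. Of the list's 32 genes, 22 had a promoter in the table. The other 10, among them Cdh1, Cdh2 and Cdh3, had none there and were not searched. Of the 22, 13 had the E-box in at least 1 of their promoters, or 59.1%, against 22.9% of the 14453 genes on the array with a promoter. Letters that match are a description and not a bound site. The 13 genes were Crb3, Cldn3, Cldn4, Cldn6, Cldn7, Dlg1, Dsp, Epcam, F11r, Marveld2, Ocln, Pard3 and Pard6b. They included genes with coculture values on either side of 0 (Crb3 at 0.44 and Pard3 at -0.18 on the log2 scale). Of the 11 genes above 0 with both knockdowns, Llgl1 had a promoter without the E-box, and Cdh3 and Llgl2 were not searched. A link between the E-box and the coculture values was not tested.

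The deposited values are linear signal intensities. They were quantile normalized and compared as log2(signal + 16), and each gene was read from its probe set with the highest mean. The arrays' mean signals ran from 812 to 896, the highest on shTop1 coculture replicate 1. Top1 itself had signals of 5110 to 5316 on the 4 shTop1 arrays and 5456 to 5886 on the 4 shp53 arrays. The log2 difference was -0.11 ± 0.07 (SE, limma adjusted p = 0.999) in samples combined at 1 part knockdown to 4 parts mock. The embryonic stem cell markers were bright on every array, with Pou5f1 between 12085 and 14351. The shTop1 coculture arrays differed from each other more than other replicates did in these genes. The median gap between the 2 arrays of a group over the 32 genes was 0.29 on the log2 scale in the shTop1 coculture, 0.10 in the shTop1 mix, 0.13 in the shp53 coculture and 0.12 in the shp53 mix. Over all 14267 genes tested, the same gaps were 0.20, 0.13, 0.18 and 0.17. In 11 of the 32 genes the 2 shTop1 coculture arrays lay on opposite sides of both shTop1 mix arrays, against 20.3% of all genes, and this happened in 3 genes with shp53, against 15.3% of all genes.

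Growing the cells together asks what changes in this adhesion programme beyond the knockdowns' own effects. Averaged over both knockdowns, no junction or polarity gene passed limma's test at an adjusted p of 0.05, as was true of all genes tested (0.00% called). The median log2 difference, coculture minus mix, was 0.033 over the 32 genes and 0.022 over all genes. Above 0 lay 17 of the 32 genes, against 55.3% of all genes. With median centring in place of quantile normalization 26 of the 32 lay above 0, against 64.5% of all genes, whose median was then 0.068. Above the median of all genes lay 17 of the 32 with quantile normalization and 16 with median centring. At an unadjusted p under 0.05 stood 2 of the 32, against 11.7% of all genes, both higher in coculture: Crb3 and Cdh3. Over all genes 7.09% were higher and 4.63% lower at that threshold. In 16 of the 32 genes the averaged difference changed sign when 1 array was left out. In bulk RNA such a difference cannot tell more or fewer cells of a type from more or less RNA per cell.

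**Figure D1:**
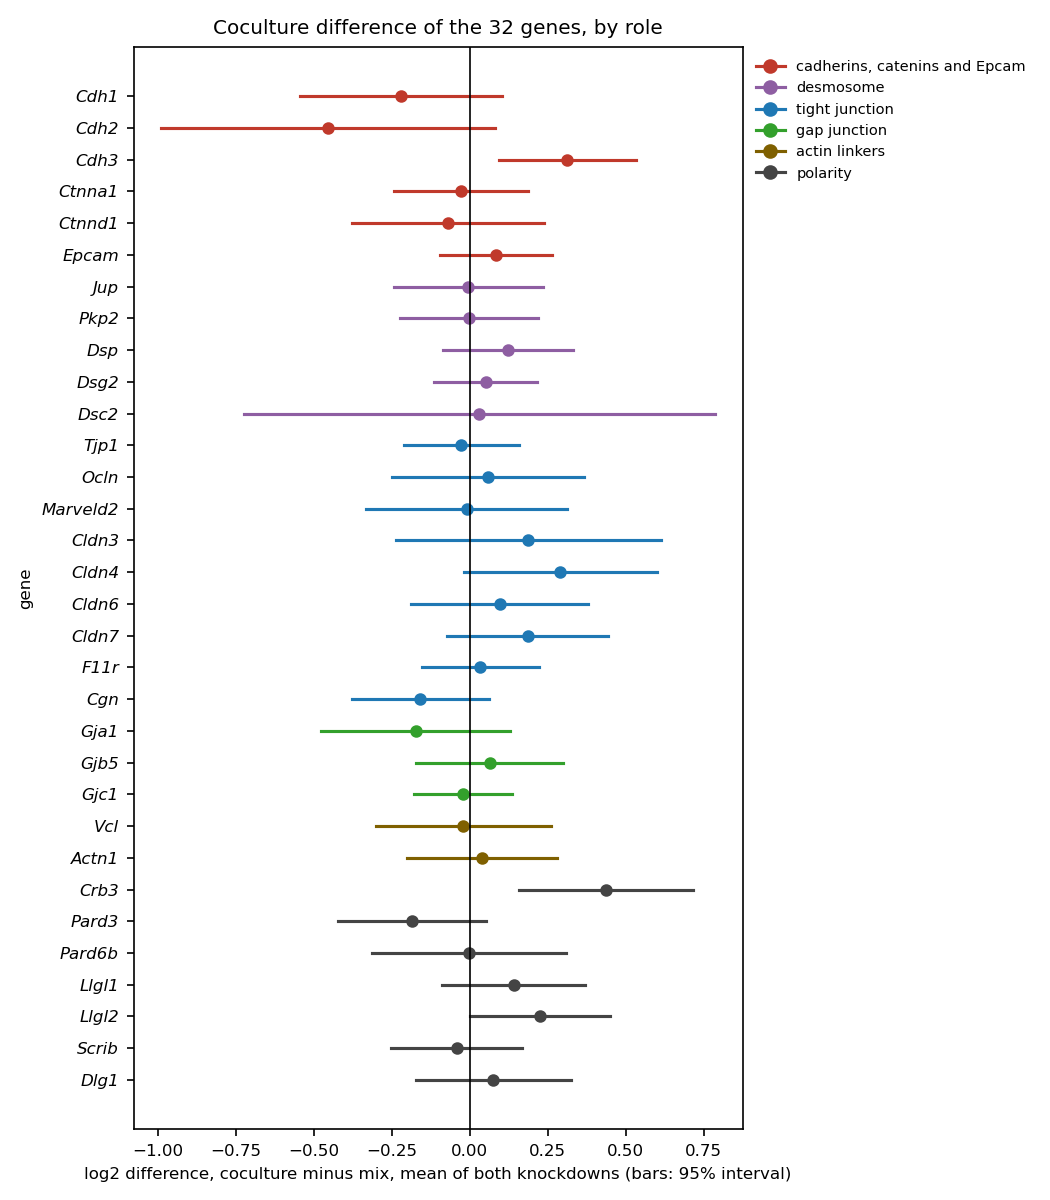
Log2 difference of coculture minus mix, averaged over both knockdowns, for each of the 32 genes (x axis), listed by role (y axis). Points are limma estimates from 8 arrays and bars are 95% intervals. Only the bars of Crb3 and Cdh3 lie wholly above 0, no bar lies wholly below it, and neither gene passed after adjustment.

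Among the polarity genes, Crb3, the small transmembrane Crumbs protein of the apical membrane, had the highest difference of the list. Its signal was 521 and 501 in the shTop1 cocultures against 444 and 335 in the shTop1 mixes, and 584 and 547 in the shp53 cocultures against 365 and 439 in the shp53 mixes. All 4 cocultures lay above all 4 mixes, which no other gene of the list showed and which held for 5.75% of all genes. In none of the 32 did all 4 cocultures lie below all 4 mixes, against 3.35% of all genes. As means ± SD (n = 2 each) this was 511 ± 14.1 against 389 ± 76.6 with shTop1, and 565 ± 26.2 against 402 ± 52.6 with shp53. The log2 difference was 0.44 ± 0.11 (SE), a ratio of 1.35 on signal plus 16 (limma adjusted p = 0.345, 95% interval 0.16 to 0.72). The other Crb3 probe sets above the filter had lower differences, so that the 3 together ran from 0.24 to 0.44, and none was below 0. Neither of the others kept all cocultures above all mixes. With shp53 they had 490 and 391 in the cocultures against 448 and 353 in the mixes, and 162 and 142 against 97.4 and 193. Their shp53 differences were 0.13 each, against 0.48 with the probe set used. Leaving out 1 array at a time, the Crb3 value ran from 0.34 to 0.53.

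Llgl2, an epithelial Lgl protein of the basolateral side, had signals of 660 and 799 in the shTop1 cocultures against 608 and 679 in the shTop1 mixes. With shp53 the Llgl2 signals were 782 and 800 in the cocultures against 681 and 620 in the mixes. The shp53 groups did not overlap and the shTop1 groups did, since shTop1 coculture replicate 1 lay between the mixes. The log2 difference of Llgl2 over both knockdowns was 0.23 ± 0.09 (SE, limma adjusted p = 0.425), and 0.16 to 0.29 leaving out 1 array. Its relative Llgl1 had 0.14 ± 0.09 (SE). Pard3, the scaffold of the Par complex, lay on the other side at -0.18 ± 0.10 (SE), with signals of 655 to 793 in the cocultures against 739 to 870 in the mixes. Pard6b, its partner that binds atypical protein kinase C, was at -0.002, and the basolateral scaffolds Scrib and Dlg1 were at -0.04 and 0.08. The polarity genes thus showed no common direction, with 4 of 7 above 0 and a median of 0.08.

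**Figure D2:**
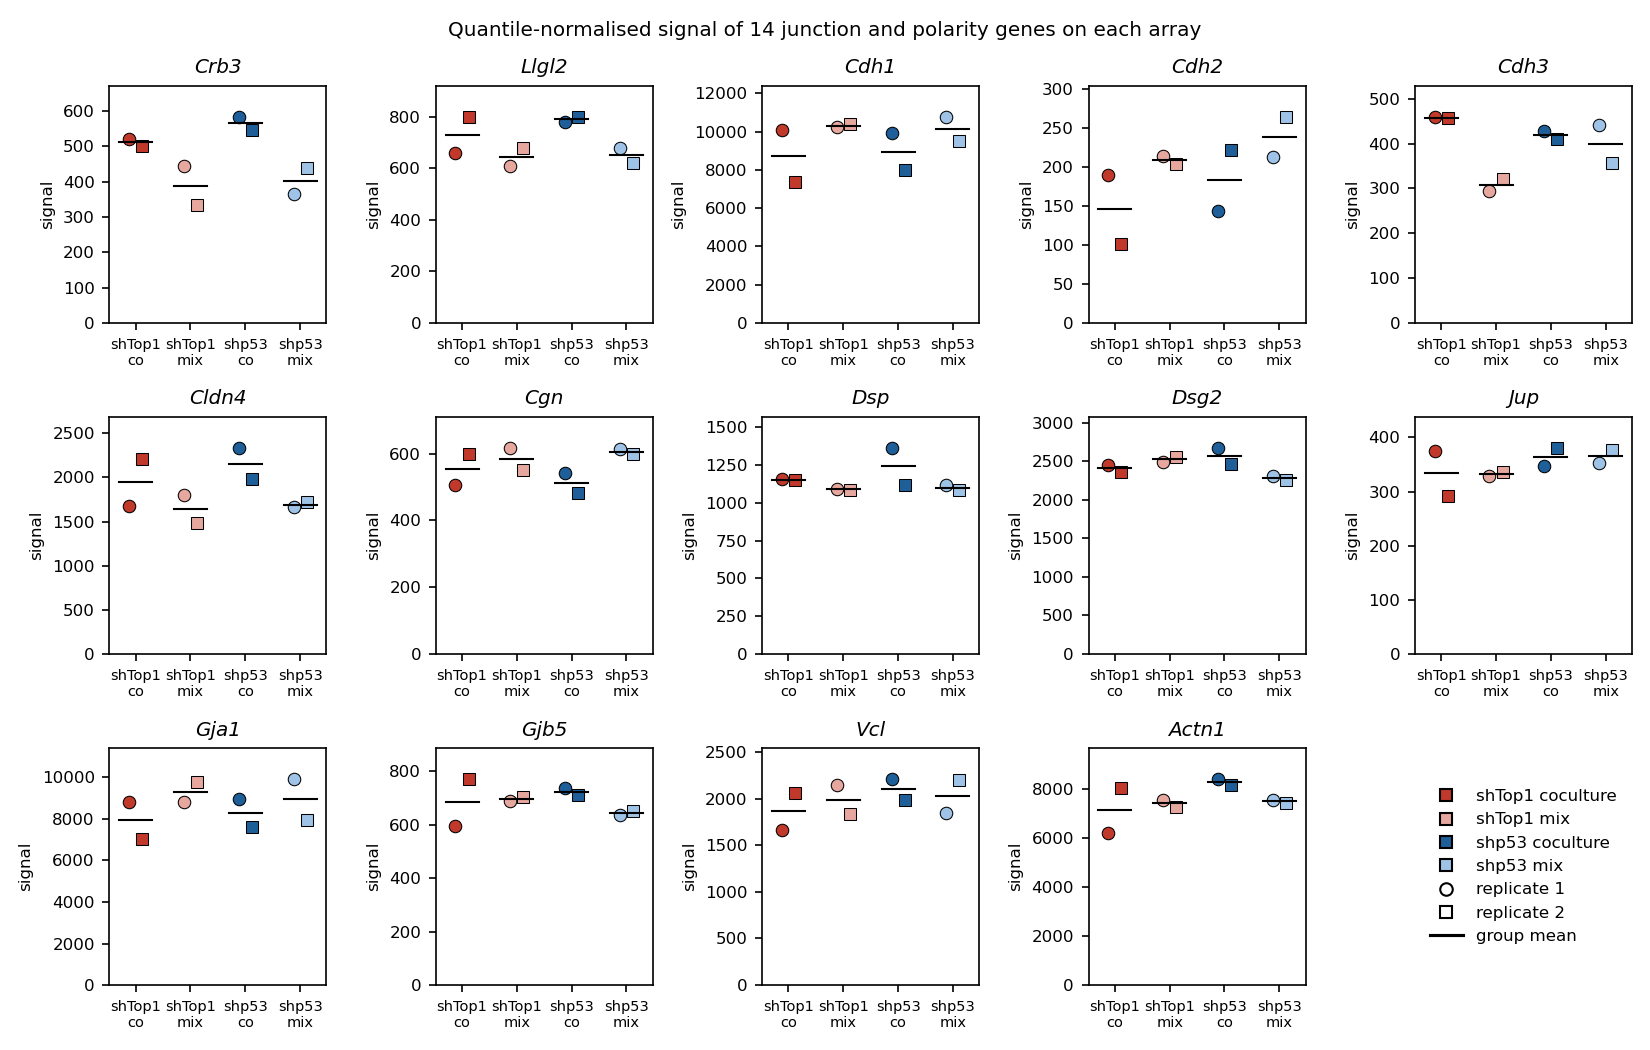
Quantile-normalised signal (y axis, from 0) of 14 genes on each array, by group (x axis: shTop1 coculture, shTop1 mix, shp53 coculture, shp53 mix). Circles and squares are replicates 1 and 2 and lines are group means. In Crb3 the 4 cocultures sit between 501 and 584 and the 4 mixes between 335 and 444, while in Cdh1, Gja1 and Vcl the 4 cocultures overlap the 4 mixes.

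The classical cadherins did not move as one. Cdh1, which encodes E-cadherin, had signals of 10105 and 7368 in the shTop1 cocultures against 10215 and 10388 in the shTop1 mixes, and 9918 and 7979 in the shp53 cocultures against 10762 and 9520 in the shp53 mixes. In each coculture replicate 2 was the low array, and the shp53 groups overlapped. The log2 difference of Cdh1 was -0.22 ± 0.13 (SE, limma adjusted p = 0.549). It was -0.33 without shTop1 coculture replicate 1 and -0.11 without shTop1 coculture replicate 2.

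Cdh2, which encodes N-cadherin, the cadherin of mesoderm and neural tissue, was at a low signal of 190 and 101 in the shTop1 cocultures against 214 and 203 in the shTop1 mixes. In the shp53 samples Cdh2 had 144 and 222 in the cocultures against 213 and 264 in the mixes. Its log2 difference was -0.45 ± 0.22 (SE, limma adjusted p = 0.469), the lowest of the list, and both of its probe sets lay below 0. The size turned on single arrays: it was -0.66 without shTop1 coculture replicate 1 and -0.25 without shTop1 coculture replicate 2. Cdh1 and Cdh2 thus had the same sign in coculture, and neither passed.

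Cdh3, which encodes P-cadherin, the cadherin of placenta and basal epithelia, had signals of 459 and 456 in the shTop1 cocultures against 295 and 321 in the shTop1 mixes. With shp53 the Cdh3 signals were 429 and 411 in the cocultures against 441 and 357 in the mixes, which overlapped. The difference of Cdh3 was 0.31 ± 0.09 over both knockdowns (SE, limma adjusted p = 0.354), 0.55 ± 0.13 with shTop1 and 0.08 ± 0.13 with shp53. A second, dim Cdh3 probe set, with signals of 6.54 to 75.1, had -0.39 over both knockdowns, and the mean of the 2 probe sets was -0.04. The higher value of Cdh3 thus rests on its brighter probe set. Cdh3 (chr8:106510852-106556911) and Cdh1 (chr8:106603350-106670247) are neighbours on GRCm38.p6, with differences on opposite sides of 0.

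Of the cadherin partners, alpha-catenin (Ctnna1), which links cadherins to actin, was at -0.03 and p120-catenin (Ctnnd1), which keeps cadherins at the membrane, at -0.07. Both changed sign when single arrays were left out, and the probe sets of each had mixed signs. For Ctnna1 a probe set nearly as bright as the one used had 0.16, and a dimmer one had -0.35. Epcam, an epithelial adhesion protein of stem cells that binds claudin 7, was at 0.08 ± 0.07 (SE) and its 2 probe sets agreed in sign. Jup, or plakoglobin, a catenin shared by adherens junctions and desmosomes, had signals of 375 and 292 in the shTop1 cocultures against 329 and 336 in the shTop1 mixes. In the shp53 samples Jup had 348 and 380 in the cocultures against 353 and 377 in the mixes. Its coculture arrays lay on both sides of the mixes in each knockdown, and its difference was -0.004 (95% interval -0.24 to 0.24).

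The desmosomal genes lay close to 0 in coculture, from -0.004 to 0.12. Dsp, or desmoplakin, which ties the desmosome to keratin filaments, had signals of 1159 and 1149 in the shTop1 cocultures against 1091 and 1086 in the shTop1 mixes. In the shp53 samples Dsp had 1363 and 1118 in the cocultures against 1119 and 1083 in the mixes, with shp53 coculture replicate 1 the highest of all arrays. The difference of Dsp was 0.12 ± 0.08 (SE, limma adjusted p = 0.596), it was 0.05 without that array, and a second probe set of the gene had -0.14. The plaque protein gene Pkp2 was at -0.001 (95% interval -0.22 to 0.22), and the desmosomal cadherin Dsc2 had a value of 0.03 with an interval of -0.72 to 0.79. Dsc2 was dim, and its signal of 135 on shTop1 coculture replicate 1 and 40.4 on replicate 2 enclosed those of every other array.

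The claudin genes, which encode the sealing strands of tight junctions, lay on 1 side of 0 in this list. The 4 listed claudins were above 0 with each knockdown, from 0.10 to 0.28 with shTop1 and from 0.09 to 0.34 with shp53, and none passed the test. Cldn4 had signals of 1675 and 2213 in the shTop1 cocultures against 1805 and 1478 in the shTop1 mixes. With shp53 the Cldn4 signals were 2334 and 1978 in the cocultures against 1660 and 1719 in the mixes, with no overlap. Its difference over both knockdowns was 0.29 ± 0.13 (SE, limma adjusted p = 0.448). With shTop1 the value was 0.43 without coculture replicate 1 and 0.04 without coculture replicate 2. Averaged over both knockdowns, Cldn3 had 0.19 ± 0.17, Cldn7 had 0.19 ± 0.11 and Cldn6, a claudin of early embryonic epithelium, had 0.10 ± 0.12 (SE). All 4 probe sets of Cldn3 lay above 0 when averaged over both knockdowns, from 0.19 to 0.35. With shp53 alone 3 of the 4 lay above 0 and the other was at -0.15. Single arrays set the size or sign of the smaller values. Over both knockdowns Cldn3 was at 0.04 and Cldn6 at -0.003 without shTop1 coculture replicate 2. With shTop1 alone Cldn3 was at -0.03 and Cldn6 at -0.10 without that array, and with shp53 alone they were at -0.07 and -0.03 without shp53 coculture replicate 1. Claudins outside the list did not all share the sign, and they are named here after their values were seen. Averaged over both knockdowns, Cldn5, Cldn9 and Cldn12 were at 0.27, 0.09 and 0.01, while Cldn2 was at -0.40 ± 0.15 and Cldn10 at -0.68 ± 0.32 (SE). Cldn10 was dim at 3.89 to 69.3, with -0.19 ± 0.45 for shTop1 and -1.16 ± 0.45 for shp53 (SE). Cldn2 was dim, with 48.7 and 37.0 in the shTop1 cocultures against 26.6 and 16.9 in the shTop1 mixes, and 7.55 and 5.59 in the shp53 cocultures against 56.1 and 37.0 in the shp53 mixes. Its coculture effect was 2.10 ± 0.30 higher with shTop1 than with shp53 (SE, limma adjusted p = 0.427).

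The other tight junction genes of the list did not all share the sign of the listed claudins. Cgn, or cingulin, which binds the junction to actin and myosin, had signals of 508 and 599 in the shTop1 cocultures against 617 and 552 in the shTop1 mixes. In the shp53 samples Cgn had 541 and 483 in the cocultures against 613 and 600 in the mixes, with no overlap. Its difference was -0.16 ± 0.09 (SE, limma adjusted p = 0.527), and a dimmer probe set had 0.11. Tjp1, the ZO-1 scaffold, was at -0.03 (95% interval -0.21 to 0.16). Ocln, or occludin, was at 0.06, tricellulin (Marveld2), the occludin relative of three-cell contacts, at -0.01 and the adhesion molecule F11r, or JAM-A, at 0.03. These genes, other than Cgn, changed sign when single arrays were left out.

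Gja1, which encodes connexin 43, a connexin of embryonic stem cells, had signals of 8819 and 7056 in the shTop1 cocultures against 8826 and 9783 in the shTop1 mixes. In the shp53 samples Gja1 had 8964 and 7589 in the cocultures against 9929 and 7974 in the mixes. The shTop1 groups did not overlap, by a margin of 8819 against 8826, and the shp53 groups did. The difference of Gja1 was -0.17 ± 0.12 (SE, limma adjusted p = 0.610). Of its 6 probe sets 4 lay below 0, and the other 2 had 0.14 each. Gjb5, a connexin known from trophoblast and skin, had signals of 596 and 771 in the shTop1 cocultures against 688 and 704 in the shTop1 mixes, and 737 and 710 in the shp53 cocultures against 636 and 651 in the shp53 mixes. Its difference was 0.06 ± 0.10 (SE), and -0.03 without shTop1 coculture replicate 2. Gjc1, which encodes connexin 45, was the steadiest gene of the list, with signals of 1785 to 1878 over all arrays and a difference of -0.02 (95% interval -0.18 to 0.13).

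**Figure D3:**
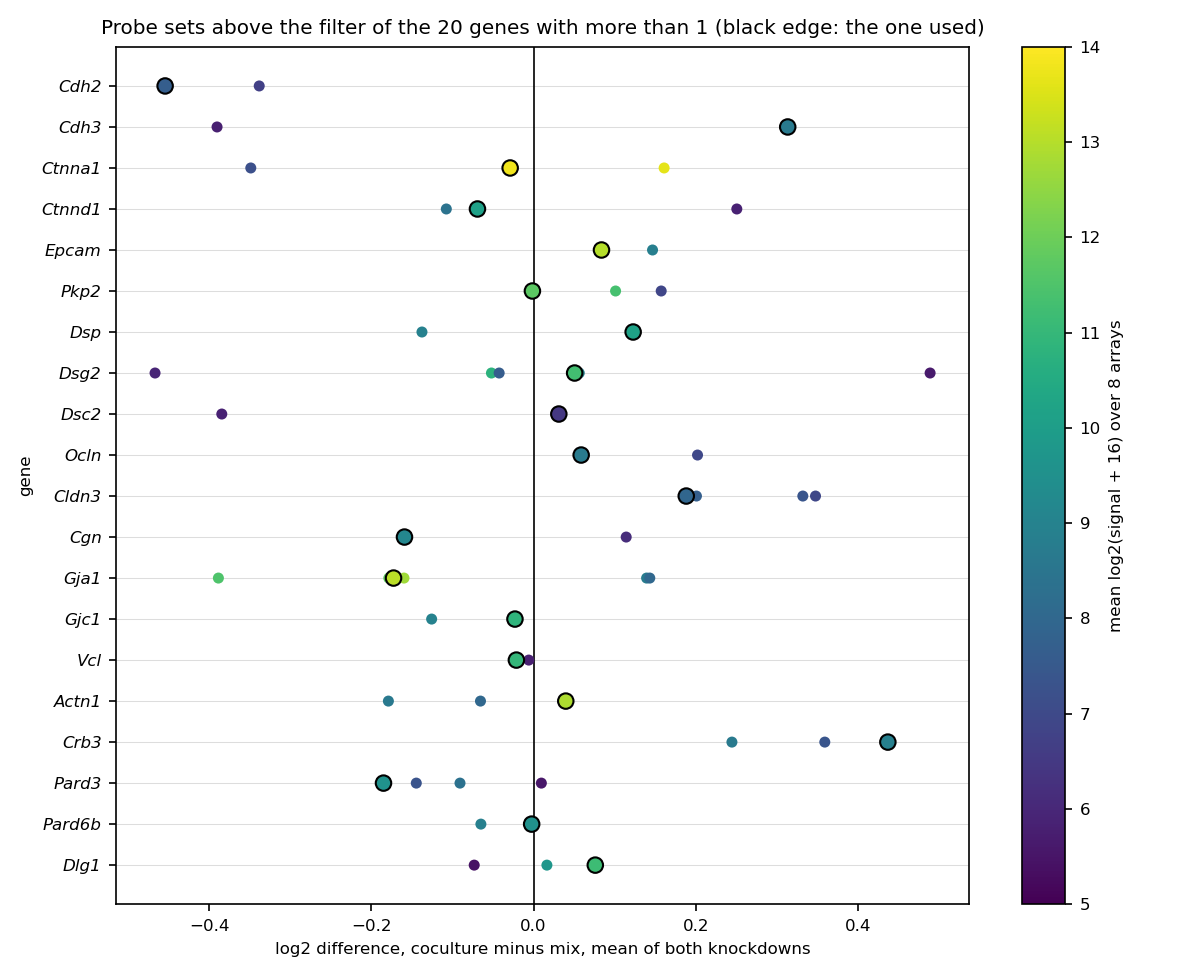
Log2 difference of coculture minus mix, averaged over both knockdowns (x axis), for every probe set above the filter of the 20 genes with more than 1 (y axis). Colour is the mean log2 level over 8 arrays, and a black edge marks the probe set used. All probe sets shared a sign in 8 of the 20 genes, among them Crb3, Cldn3 and Cdh2, and signs were mixed in the other 12, among them Cdh3, Dsg2 and Gja1.

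The actin linkers of the list were vinculin (Vcl), which strengthens adhesions under tension, and alpha-actinin 1 (Actn1), which cross-links actin filaments. Vcl had signals of 1669 and 2061 in the shTop1 cocultures against 2148 and 1832 in the shTop1 mixes, and 2212 and 1988 in the shp53 cocultures against 1850 and 2204 in the shp53 mixes. Its groups overlapped in both knockdowns and its difference was -0.02 ± 0.12 (SE). Actn1 had 6221 and 8042 in the shTop1 cocultures against 7555 and 7269 in the shTop1 mixes, and 8412 and 8176 in the shp53 cocultures against 7571 and 7410 in the shp53 mixes. The shTop1 coculture arrays of Actn1 lay on both sides of their mixes, the shp53 groups did not overlap, and the difference over both knockdowns was 0.04 ± 0.10 (SE). The other Actn1 probe sets, both dimmer, went the other way with shp53, at -0.32 and -0.12, against 0.15 with the probe set used. The first of these had 341 and 347 in the shp53 cocultures against 411 and 460 in the shp53 mixes, lower without overlap.

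With Top1-knockdown cells alone, no gene of the list passed limma's adjusted threshold (0.00% of all genes called), and 1 stood at an unadjusted p under 0.05, Cdh3, against 8.20% of all genes. The median over the 32 genes was -0.001, against 0.03 over all genes, and 16 of the 32 lay above 0, against 55.6% of all genes. The median was 0.08 without shTop1 coculture replicate 1. The 2 cocultures and the 2 mixes did not overlap in 10 genes, against 41.4% of all genes. Higher in coculture were 6, namely Cdh3, Crb3, Dsp, Cldn7, F11r and Llgl1, against 24.5% of all genes. Lower were 4, namely Cdh1, Cdh2, Dsg2 and Gja1, against 16.9% of all genes. The 3 genes with the smallest p were Cdh3 (0.55 ± 0.13, limma adjusted p = 0.507), Crb3 (0.39 ± 0.16, limma adjusted p = 0.606) and Cdh2 (-0.53 ± 0.31, SE, limma adjusted p = 0.692). For Crb3 this value was 0.59 without shTop1 mix replicate 1 and 0.20 without shTop1 mix replicate 2, and for Cdh2 it was -0.94 without shTop1 coculture replicate 1 and -0.12 without shTop1 coculture replicate 2.

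With p53-knockdown cells alone, again no gene of the list passed (0.00% of all genes called), and 1 stood at an unadjusted p under 0.05, Crb3, against 6.86% of all genes. The median over the 32 genes was 0.04, against 0.01 over all genes, and 17 lay above 0, against 53.0% of all genes. The groups did not overlap in 10 genes, against 38.0% of all genes. The 8 higher in coculture, against 20.9% of all genes, were Crb3, Llgl2, Cldn4, Cldn7, Dsg2, Gjb5, Actn1 and Dlg1. The 2 lower, against 17.1% of all genes, were Cgn and Pard3. The 3 genes with the smallest p were Crb3 (0.48 ± 0.16, limma adjusted p = 0.717), Llgl2 (0.28 ± 0.13, limma adjusted p = 0.749) and Cldn4 (0.34 ± 0.18, SE, limma adjusted p = 0.757).

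Set side by side, 11 of the 32 genes were above 0 with both knockdowns, 10 were below 0 with both and 11 differed in sign. The same sign was thus seen in 65.6% of the list and in 63.1% of all genes. The labels do not say whether the mixes of the 2 knockdowns shared mock RNA. The difference between the coculture effects was tested directly, and no gene passed (0.00% of all genes called). A single gene, Cdh3, stood at an unadjusted p under 0.05, against 4.30% of all genes, with a coculture effect 0.47 ± 0.18 higher with shTop1 than with shp53 (SE, limma adjusted p = 1.00). The next were Dsg2, a desmosomal cadherin, at -0.24 ± 0.14 and Actn1 at -0.21 ± 0.20 (SE). The dimmer Actn1 probe sets had the opposite sign, at 0.29 and 0.10. Dsg2 had signals of 2454 and 2365 in the shTop1 cocultures against 2494 and 2556 in the shTop1 mixes, and 2675 and 2466 in the shp53 cocultures against 2305 and 2261 in the shp53 mixes. Its 6 probe sets divided into 3 above and 3 below 0 over both knockdowns.

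**Figure D4:**
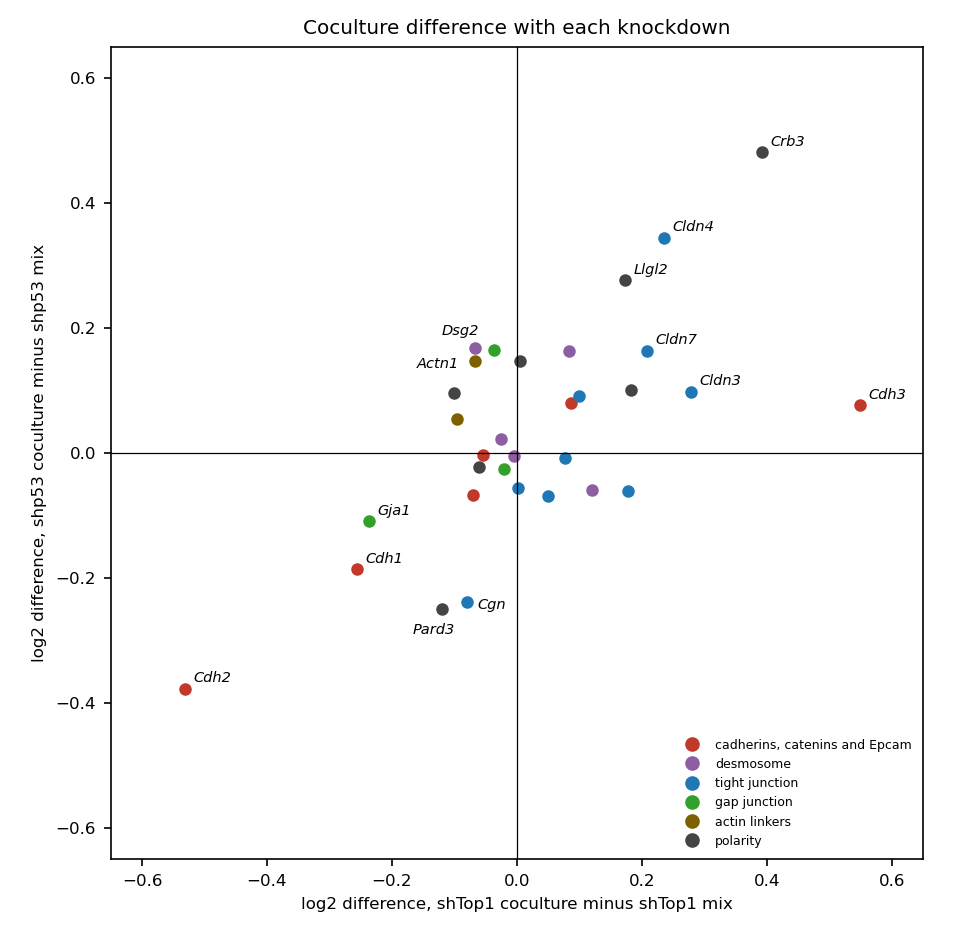
Log2 difference of coculture minus mix with shTop1 (x axis) and with shp53 (y axis), 1 point for each of the 32 genes, coloured by role. Crb3, Llgl2 and Cldn4 lie above 0 and Cdh2, Cdh1 and Gja1 below 0 on both axes, while Cdh3 is at 0.55 on the shTop1 axis and 0.08 on the shp53 axis.

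The knockdowns were also compared with each other over both conditions, shTop1 minus shp53. No gene of the list passed (0.00% of all genes called) and 0 of the 32 stood at an unadjusted p under 0.05, against 4.70% of all genes in limma's test. Above 0 lay 8 of the 32 genes and below it 24, against 48.7% of all genes above 0 and 51.3% below it. This split depended on the scaling, which moved all genes: with median centring 20 of the 32 lay above 0, against 66.4% of all genes. Above the median of all genes lay 9 of the 32 with quantile normalization and 12 with median centring. The 3 smallest p belonged to Jup (-0.13 ± 0.10), Cdh3 (-0.11 ± 0.09) and Actn1 (-0.12 ± 0.10, SE), each with a limma adjusted p of 0.999. Leaving out 1 array, Jup ran from -0.21 to -0.04 and Actn1 from -0.22 to -0.03, both set by the shTop1 coculture arrays, and Cdh3 from -0.19 to -0.04, set by the shp53 mix arrays. In no gene of the list were all 4 shTop1 arrays apart from all 4 shp53 arrays, against 2.09% of all genes.

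Related junction and polarity genes outside the list were read the same way, 66 in all, of which 61 were named on the array and 52 passed the filter. No related gene passed the adjusted threshold in the averaged coculture comparison, 31 of the 52 lay above 0 (55.3% of all genes), and the median was 0.04. At an unadjusted p under 0.05, 4 were higher (7.09% of all genes) and 1 was lower (4.63% of all genes). The smallest p belonged to Gjb2, the connexin 26 gene, at 0.51 ± 0.15 with dim signals of 23.3 to 77.3, and to Nectin2, an immunoglobulin-like adhesion gene, at 0.26 ± 0.08 (SE). Nectin2 had signals of 1959 and 1892 in the shTop1 cocultures against 1555 and 1702 in the shTop1 mixes, and 1925 and 1706 in the shp53 cocultures against 1475 and 1500 in the shp53 mixes (limma adjusted p = 0.357). Its cocultures all lay above its mixes, by a margin of 1706 against 1702. Ctnnb1, which encodes beta-catenin, the catenin that binds E-cadherin, was at 0.02 ± 0.07 (SE).

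The list of epithelial-mesenchymal factors, 15 genes with 14 above the filter, had 6 above 0 (55.3% of all genes) and 8 below. Its median was -0.03, and none of its genes passed the adjusted threshold. Grhl3, a grainyhead transcription factor of surface epithelia, had the smallest p, with 568 and 623 in the shTop1 cocultures against 454 and 441 in the shTop1 mixes, and 529 and 488 in the shp53 cocultures against 433 and 390 in the shp53 mixes. All cocultures of Grhl3 lay above all mixes, by 0.35 ± 0.08 (SE, limma adjusted p = 0.333). Klf4, which was next, had -0.15 ± 0.08 (SE). None of the E-box repressors passed, with Snai1 at 0.18 ± 0.18, Snai2 at -0.21 ± 0.30, Zeb1 at -0.03 ± 0.09 and Zeb2 at -0.03 ± 0.19 (SE), and Zeb2 was dim at 26.6 to 54.9. Snai2, at signals of 32.7 to 134, was at -0.82 ± 0.43 with shTop1 and 0.39 ± 0.43 with shp53 (SE).

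Markers of other cell types that a stem cell culture could hold had higher summed signals in the cocultures, without a gene that passed. The summed signal of the 8 fibroblast markers named on the array was 557 to 667 in the cocultures and 496 to 506 in the mixes. Of these markers Col3a1, Postn, Lum and Dcn were below the filter and Col1a1 was at 5.34 to 40.2, while Thy1 and Col5a1 had differences of 0.35 and 0.37. Above 0 lay 4 of the 4 tested with shTop1 (55.6% of all genes) and 3 of the 4 with shp53 (53.0%). The sum of 8 trophectoderm markers was 7846 to 8504 in the cocultures and 6905 to 7696 in the mixes. Most of that sum came from the keratin genes Krt8 (0.14) and Krt18 (0.15), Elf5 and Gata3 were below the filter, and Cdx2 was at 17.8 to 69.5. Of the 6 trophectoderm markers tested, 3 lay above 0 with shTop1 (median 0.009) and 5 with shp53 (median 0.20). The sum of 8 primitive endoderm markers, all above the filter, was 27894 to 31343 in the cocultures and 25516 to 27712 in the mixes. All 8 had averaged differences above 0, against 55.3% of all genes. With shTop1 alone 6 of the 8 lay above 0 (median 0.09), and with shp53 alone all 8 did (median 0.16). Of the 8 embryonic stem cell markers, Sox2, Zfp42 and Klf4 were lower in coculture by value, at -0.29 ± 0.12, -0.28 ± 0.10 and -0.15 ± 0.08, and the other 5 were above 0, with Nanog at 0.20 ± 0.11 and Pou5f1 at 0.11 ± 0.07 (SE). Their sums overlapped, at 107437 to 115191 in the cocultures and 110618 to 113682 in the mixes. None of the marker genes passed the adjusted threshold. The part of such cells in the values of Crb3, Cdh3 and the claudins was not tested.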

How the data were processed

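RNA from 8 samples of mouse embryonic stem cells, 4 groups of 2, was labelled with biotin and hybridised to Affymetrix arrays, per the labels' protocols. The deposited values are linear signal intensity per probe set. The 2% trimmed mean of each deposited array was 500.003 to 500.004, so the authors' values carry a common scaling. How probes were summarised is not given in the labels. The 8 arrays limit the precision.

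Of 45101 probe sets, 34958 carried 1 gene symbol in the platform annotation, 932 several and 9211 none, and only the first were used. Quantile normalization across arrays came first, then log2(value + 16), which understates changes of dim genes. The probe set with the highest mean stood for each gene, and genes below the 30th percentile of mean signal (22.1) were left out, leaving 14267. Group means were fitted with limma 3.58.1 in R 4.3.3 (lmFit, eBayes, 4 residual degrees of freedom), two-sided, with Benjamini-Hochberg adjustment over all genes tested and a threshold of 0.05. The script was tested on simulated data.

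All 32 genes are named. Signals on every array are given for Cdh1, for the 2 genes of each role with the smallest p in the averaged coculture comparison and for the 3 with the smallest p in each other comparison. Of the related junction genes and of the epithelial-mesenchymal factors, the 2 with the smallest p are named, and other genes named were chosen after their values were seen. The members and lists were chosen with earlier results of these data known. The p53 gene's own probe set is not reported here.

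Same-numbered replicates did not deviate together (correlations of -0.007 to 0.051 over 6 pairs), so the numbers were not used as a block. Alternatives covered normalization, the filter, the choice of probe set, the variance model, the arrays in the fit, the pseudocount, a replicate block and leaving out each array. Scan batches were not analysed here.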

Additional observations from a re-analysis of the deposited data

Results flagged for a closer look

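Dsg2, a desmosomal cadherin, was the one gene of the list whose coculture values were opposite in sign between the knockdowns with no overlap of coculture and mix in either, a pattern that 3.55% of all genes tested showed. It was lower in coculture with shTop1 (-0.07) and higher with shp53 (0.17 on the log2 scale). The difference between these effects was -0.24 ± 0.14 (SE), and limma's test of that difference gave an adjusted p of 1.00 and an unadjusted p of 0.131. With the mean of all Dsg2 probe sets the difference was -0.02. Groups of 2 arrays are too small for a search for outlying samples.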

How the results depend on the processing

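No junction or polarity gene passed the adjusted threshold under any alternative run, and the smallest adjusted p was 0.114, for Crb3 in the averaged comparison with trended and robust variances. That setting called 3 genes with shTop1, 1 with shp53 and 31 in the averaged comparison, none of them on the list. Median centring moved the median of all genes by 0.045 to 0.055 in the comparisons other than the difference of effects. In these the median of the 32 genes was then 0.056 (shTop1), 0.098 (shp53), 0.078 (averaged) and 0.026 (shTop1 minus shp53). When a gene's probe sets were averaged it was -0.00084 (shp53), -0.0027 (averaged) and 0.024 (difference of effects), and with every probe set by itself -0.0040 (shp53) and 0.014 (difference of effects). Leaving out 1 array, the median ran from -0.0016 to 0.082 (shTop1), 0.00064 to 0.053 (shp53), 0.015 to 0.049 (averaged), -0.064 to 0.016 (difference of effects) and -0.057 to -0.021 (shTop1 minus shp53), with 0 genes called by limma each time. The cause was not tested. In the averaged comparison 14 of the 32 genes kept their sign under every alternative. The replicate block, whose numbers do not pair the samples, called 0 genes in every comparison and left the value of Crb3 at 0.44. Dim probe sets limit what can be read for Dsc2, Cdh2 and the second Cdh3 probe set.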
